A study of Mus musculus with 16 samples.

Results

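The messenger RNAs of 10 secreted factors of the bone marrow were described: Tnf, Il1b, Osm, Tgfb1, Il15, Il12a, Cxcl10, Ccl3, Ccl4 and Ccl6. They were chosen by gene symbol, as cytokines and chemokines of the marrow, out of 16612 genes listed in the tables. RNA was sequenced from bone marrow of untreated C57BL/6J mice, WT or IL-6 KO, taken 8 days after 500000 BCR-ABL+, Arf-/- B-ALL (B cell acute lymphoblastic leukemia) cells were injected into the tail vein. The leukemia cells, marked with the fluorescent protein mCherry, were the same in both, so the genotype is that of the host. Sorted mCherry+ cells are called tumor and all other live marrow cells, mCherry-, are called stroma, giving WT tumor, IL-6 KO tumor, WT stroma and IL-6 KO stroma with 4 libraries each. All animals were 6 to 8 weeks old, of both sexes, and every one carried leukemia cells of 1 transplantable male line, so there is no leukemia-free marrow among the 16 libraries.

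Cytokines and chemokines are small secreted proteins that act on nearby cells through surface receptors. Tnf and Il1b, products of activated myeloid cells above all, start inflammatory signalling through NF-kB. Osm signals through gp130, the receptor chain that IL-6 also uses. Tgfb1 restrains lymphocytes and is secreted in a latent form that has to be released before it can act. Il15 sustains natural killer and memory CD8+ T cells, Il12a encodes the subunit that IL-12 and IL-35 have in common, and Cxcl10, Ccl3, Ccl4 and Ccl6 recruit leukocytes.

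The stroma table listed 8 of the 10 genes and the one of tumor held 6. Tnf, Il1b, Osm, Tgfb1, Il12a and Ccl6 were in both. Il15 and Cxcl10 were in the stroma table and were not analysed in tumor, and Ccl3 and Ccl4 were not analysed here in either compartment. The lowest mean of any listed gene was a normalized count of 0.892 in stroma and 3.95 in tumor. Of the listed genes, 7 in stroma and all 6 in tumor had a mean normalized count over 10 and were tested. Cxcl10 was below that limit. In stroma its normalized counts were 0, 6.96, 8.96 and 4.28 in WT mice and 0, 0, 5.93 and 12.4 in IL-6 KO mice, near the bottom of the table in both genotypes.

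The sums of normalized counts ran from 8806000 to 44190000 per stroma library and from 38820000 to 55590000 per tumor library. These are scaled values, and the reads behind each library are not given by them. The tumor libraries carried the B lineage genes of their label, with Ighm, Igll1 and Cd79a highest. The stroma libraries were led by erythroid genes (Hba-a1, Slc4a1 and Hbb-bt) and neutrophil genes (Ltf, Ngp and S100a9), and of 14 mesenchymal and endothelial markers, 8 were listed there. Cxcl12, Lepr, Pdgfra, Cdh5, Emcn and Tek, which define marrow stromal and endothelial cells, were not analysed in that table. In it, 3 of 14 T and NK cell markers were listed. Il6 was in neither table, so the knockout itself could not be checked here.

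Tgfb1 was the highest of the 6 genes in leukemia cells, also per kilobase (given further on). Its normalized counts were 18280, 18910, 19060 and 18150 in WT tumor and 16380, 22120, 16890 and 20520 in IL-6 KO tumor. The WT libraries lay close together, and the IL-6 KO libraries lay on both sides of them. The means were 18600 ± 451 (SD, n = 4) and 18980 ± 2790 (SD, n = 4), and ranked by normalized count they stood at percentiles 98.4 and 98.3 of all genes in the tumor table. The log2 fold change, IL-6 KO minus WT, was 0.02 (standard error, SE, 0.10, adjusted p = 0.917, limma).

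Tnf came next in leukemia cells, with a spread between WT libraries as narrow as that of Tgfb1. It had normalized counts of 562, 570, 573 and 546 in WT tumor and 669, 479, 538 and 570 in IL-6 KO tumor. The WT values fell inside the range of the IL-6 KO values. The log2 fold change was -0.01 (SE 0.11, adjusted p = 0.974, limma), with a 95% interval from -0.25 to 0.24. The interval of Tgfb1 ran from -0.20 to 0.23, so for both genes it held no change larger than 0.26 on the log2 scale.

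Of the 6 listed factors in tumor, Osm, Il12a and Ccl6 had the smallest p-values, and none of them passed the threshold over all genes. For Osm the normalized counts were 264, 239, 330 and 238 in WT tumor and 327, 370, 350 and 334 in IL-6 KO tumor. WT tumor 3 was above the lowest IL-6 KO library, and the other WT libraries were below all of them. For Osm the log2 fold change was 0.38 (SE 0.13, adjusted p = 0.0688, limma). It passed the threshold when WT tumor 3 was left out (log2 fold change 0.48, limma adjusted p = 0.0348). Over all alternative settings, each library left out among them, its limma adjusted p ran from 0.0348 to 0.424.

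Il12a went the other way. It had normalized counts of 278, 280, 316 and 240.0 in WT tumor and 177, 277, 204 and 165 in IL-6 KO tumor, where 3 libraries lay below all WT libraries and IL-6 KO tumor 2 lay among them. Its log2 fold change was -0.46 (SE 0.17, adjusted p = 0.0930, limma), and it was -0.61 without IL-6 KO tumor 2 (limma adjusted p = 0.0161). Over all alternative settings its limma adjusted p ran from 0.0132 to 0.222.

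Ccl6, a chemokine of myeloid cells, was low in tumor. It had normalized counts of 32.4, 31.1, 14.5 and 9.92 in WT tumor and 55.8, 64.0, 18.8 and 60.3 in IL-6 KO tumor. All WT libraries were exceeded by 3 from IL-6 KO mice, while IL-6 KO tumor 3 was below 2 of the WT libraries. Its fold change was 1.16 on the log2 scale (SE 0.50, adjusted p = 0.127, limma), and without IL-6 KO tumor 3 it was 1.56 (limma adjusted p = 0.0442). Over all alternative settings its limma adjusted p ran from 0.0442 to 0.260.

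Il1b was the lowest of the 6 in leukemia cells, per kilobase too. Its normalized counts were 7.11, 20.2, 5.46 and 3.98 in WT tumor and 9.54, 20.9, 12.4 and 22.2 in IL-6 KO tumor, and WT tumor 2 was close to the upper IL-6 KO libraries. On the log2 scale Il1b differed by 0.93 (SE 0.54, adjusted p = 0.252, limma).

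In tumor, 0 of the 6 tested genes passed an adjusted p of 0.05 (limma), where 19.8% of the 14493 genes tested did. At an unadjusted p of 0.05, 3 of the 6 passed, beside 35.1% of all genes. Of these, Osm and Ccl6 were higher in IL-6 KO mice, as were 18.3% of all genes, and Il12a was lower, as were 16.8%. The genotypes overlapped for all 6, where they did not overlap for 25.6% of all genes. The median log2 fold change was 0.20 over the 6 and -0.01 over all genes tested.

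**Figure D1:**
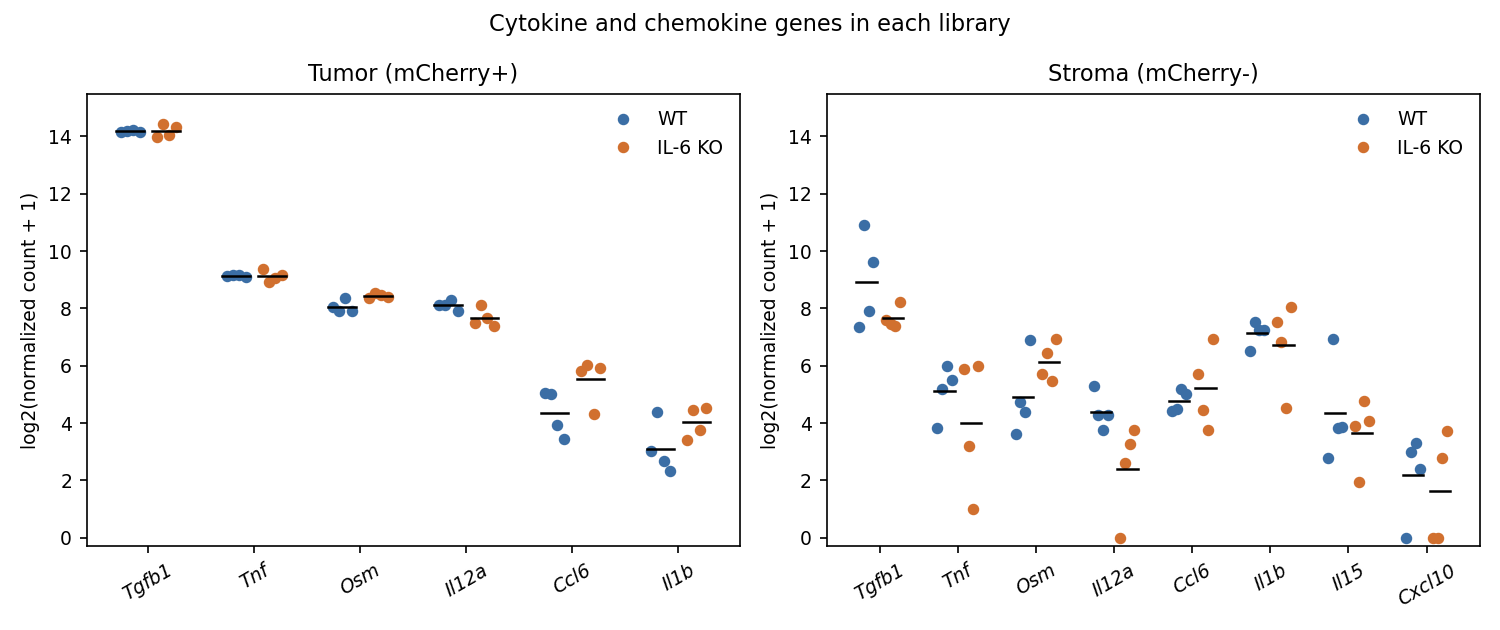
Each point is 1 library, with log2(normalized count + 1) on the vertical axis, WT in blue and IL-6 KO in orange, tumor on the left and stroma on the right; black lines are group means on that scale. Tumor values formed narrow groups for Tgfb1, Tnf, Osm and Il12a, while stroma values of the same genes spread widely, and the genotypes overlapped for every gene in both panels.

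In stroma the standard error of the genotype difference was larger than in tumor for all 6 genes tested in both. Tgfb1 had normalized counts of 161, 1914, 238 and 784 in WT stroma and 192, 176, 167 and 302 for IL-6 KO stroma. WT stroma 2 and WT stroma 4 stood above all other libraries, and WT stroma 1 was the lowest of the 8. The log2 fold change was -1.26 (SE 0.65, adjusted p = 0.575, limma), and -0.61 without WT stroma 2. The same 2 libraries had the highest sums of the 16 B lineage markers in stroma, 10800 in WT stroma 2 and 9486 in WT stroma 4, where the other 6 lay between 3418 and 7811. The next highest sum, 7811, was that of WT stroma 1, which had the lowest Tgfb1. In WT stroma the sum ran from 6381 to 10800 and in IL-6 KO stroma from 3418 to 6638. Cd24a, Bach2 and Ebf1 were highest, and Ms4a1 and Vpreb2 were too low to be tested. Ms4a1 had means of 8.43 in WT and 4.72 in IL-6 KO stroma, and Vpreb2 went the other way, with 2.98 and 13.8. Cd24a alone had means of 5948 and 3856, where the sums had means of 8620 and 5367, so it made up most of the sum. Of 14 tested markers, 11 had a log2 fold change below 0. Among the 3 above 0 were Igll1 (means of 22.9 in WT and 40.3 in IL-6 KO stroma) and Vpreb1 (10.6 and 26.0). The erythroid sums of WT stroma 2 and WT stroma 4, 169000 and 188400, were also the highest of WT stroma. The highest erythroid sum of all, 241200, was in IL-6 KO stroma 3, where Tgfb1 was 167. The part of B lineage or erythroid cells in the Tgfb1 values was not tested. In bulk samples such as these, fewer cells of a type and less RNA per cell cannot be told apart.

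Il1b was, per kilobase, among the first 2 of the 8 genes in stroma. It had normalized counts of 91.6, 183, 152 and 153 in WT stroma and 185, 112, 22.2 and 264 for IL-6 KO stroma, so that the lowest and the highest value both came from IL-6 KO mice. The means were 145 ± 38.3 (SD, n = 4) and 146 ± 103 (SD, n = 4). On the log2 scale the difference was -0.41 (SE 0.66, adjusted p = 0.885, limma), and it changed sign to 0.32 without IL-6 KO stroma 3.

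Tnf in stroma had normalized counts of 13.2, 35.3, 62.2 and 44.2 in WT mice and 58.6, 8.25, 0.989 and 62.5 in IL-6 KO mice. Both genotypes held high and low libraries, and IL-6 KO stroma 3 was near 0. On the log2 scale Tnf differed by -1.10 (SE 1.08, adjusted p = 0.782, limma), and it was -0.09 without that library.

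For Osm the normalized counts in stroma were 11.2, 25.5, 19.7 and 119.7 in WT mice and 51.2, 87.3, 43.5 and 120.1 among the IL-6 KO libraries. WT stroma 4 stood far above its group and reached the upper IL-6 KO values, and the other WT libraries lay below all IL-6 KO libraries. On the log2 scale the fold change was 1.24 (SE 0.73, adjusted p = 0.620, limma) with all libraries and 1.91 without WT stroma 4 (limma adjusted p = 0.632). The direction was the same as in tumor, and a difference between the compartments was not tested.

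Il12a was again lower in most IL-6 KO libraries. Its normalized counts in stroma were 38.0, 18.5, 12.6 and 18.5 in WT mice and 0, 5.06, 8.58 and 12.6 in IL-6 KO mice, and the genotypes met only at the lowest WT and the highest IL-6 KO value. The log2 fold change on the log2(normalized count + 1) scale was -2.0 (SE 1.06, adjusted p = 0.583, limma). It was -1.20 without IL-6 KO stroma 1, the library at 0, and -1.28 with a pseudocount of 5.

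Ccl6 in stroma had normalized counts of 20.5, 21.6, 35.2 and 31.3 in WT mice and 52.1, 20.7, 12.5 and 122 in IL-6 KO mice. The IL-6 KO values enclosed those of WT mice on both sides. The log2 fold change was 0.44 (SE 0.76, adjusted p = 0.892, limma), and without IL-6 KO stroma 4 it was -0.14. Il15 had normalized counts of 5.85, 120, 13.2 and 13.6 in WT stroma and 14.0, 2.84, 26.2 and 15.8 for IL-6 KO stroma. A single library, WT stroma 2, set the WT mean, and the log2 fold change of -0.68 (SE 1.04, adjusted p = 0.877, limma) turned to 0.18 without it.

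In stroma 0 of the 7 tested genes passed an adjusted p of 0.05 (limma), and 1 of 12202 genes tested, 0.0082%, did. At an unadjusted p of 0.05 the counts were 0 of 7 and 9.15% of all genes. The genotypes overlapped for all 7, where they did not for 5.79% of all genes, and the median log2 fold change was -0.68 over the 7 and -0.01 over all genes tested. The 95% intervals in stroma were wide. That of Osm ran from -0.35 to 2.83 and that of Il12a from -4.29 to 0.29, so that both held no difference as well as differences of several-fold.

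**Figure D2:**
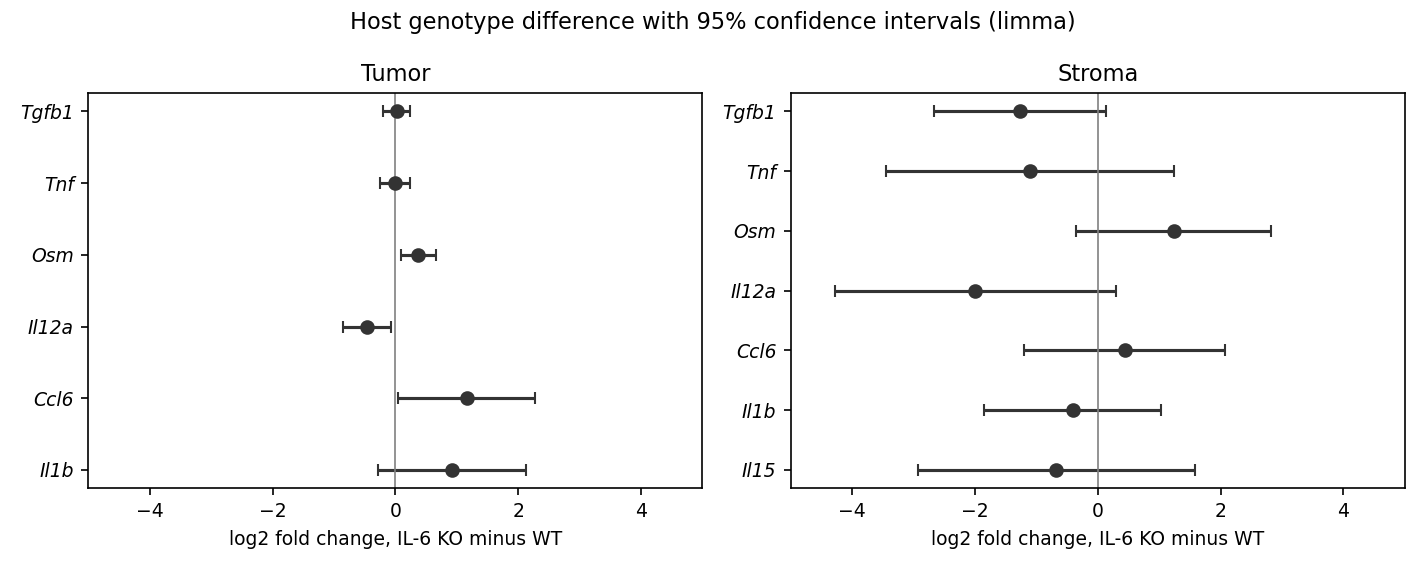
Points are log2 fold changes, IL-6 KO minus WT, from limma on log2(normalized count + 1), and bars are 95% confidence intervals, for the 6 genes tested in tumor (left) and the 7 tested in stroma (right). Intervals for Tgfb1 and Tnf in tumor were within 0.26 of 0, and every interval in stroma included 0.

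The order of the transcripts within a compartment was taken per kilobase of exon sequence, since longer genes collect more reads at the same level. In WT tumor the mean normalized counts per kilobase were 3689 ± 89.2 (SD, n = 4) for Tgfb1, 343 ± 7.54 for Tnf, 164 ± 18.1 for Il12a, 118 ± 19.0 for Osm, 12.2 ± 6.37 for Ccl6 and 4.82 ± 3.91 for Il1b. Il12a overlapped with Osm, and Ccl6 with Il1b, while the other neighbours in the order were apart in all 4 libraries. In IL-6 KO tumor Osm (152 ± 8.33) stood before Il12a (121 ± 29.5), and this pair overlapped there too. Per kilobase of the longest transcript the order of the pair in IL-6 KO tumor turned (Il12a 158 ± 38.5, Osm 152 ± 8.33), still with overlap, and in WT tumor Il12a (214 ± 23.7) was apart from Osm (118 ± 19.0). Tgfb1 and Tnf led in both genotypes.

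The order in stroma was less clear. In WT stroma Tgfb1 led with 153 ± 160 normalized counts per kilobase (SD, n = 4), overlapping with Il1b at 75.9 ± 20.1. Il1b was apart from the next gene, Tnf at 23.6 ± 12.4, and Tnf, Osm, Il15, Ccl6 and Il12a overlapped one with the next down to 12.9 ± 6.51. Cxcl10 was last at 2.24 ± 1.72, apart from Il12a. In IL-6 KO stroma Il1b came first at 76.4 ± 54.2 and Cxcl10 last at 2.03 ± 2.62, and no gene was apart from its neighbour.

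The tables of tumor and stroma were normalized separately, so levels in both were set side by side only as multiples of each library's median over the 11812 genes in both tables, with no test. Il1b and Ccl6 were higher in all 8 stroma libraries than in all 8 tumor libraries. Il1b lay between 0.256 and 2.98 times the library median in stroma (median 1.77) and between 0.00424 and 0.0235 times in tumor (median 0.0116), a ratio of medians, tumor over stroma, of 0.00655. Ccl6 lay between 0.144 and 1.37 times the median in stroma and between 0.0106 and 0.0673 times in tumor, a ratio of 0.108. Both encode factors known from myeloid cells.

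Tgfb1 was on the tumor side. It lay between 17.4 and 23.3 times the library median in tumor and between 1.87 and 22.4 times in stroma, a ratio of medians of 8.24. WT stroma 2 alone reached the tumor range, and without it every tumor library was above every stroma library. Tnf (0.504 to 0.713 times the median in tumor, 0.0114 to 0.703 in stroma), Osm (0.254 to 0.389 and 0.130 to 1.45) and Il12a (0.175 to 0.339 and 0 to 0.441) overlapped between the compartments, with ratios of medians of 1.27, 0.646 and 1.94. Summed marker lists had a ratio of 2.71 for B lineage, 0.498 for monocytes and macrophages, 0.0401 for neutrophils and 0.00683 for erythroid cells. These sums took the genes listed in each compartment. In tumor and stroma these were 15 and 16 for B lineage, 17 and 13 for monocytes and macrophages, and 9 and 11 for erythroid cells. Only the 18 neutrophil genes were the same. The B lineage sum was led by Ighm, Igll1 and Cd79a in tumor and by Cd24a in stroma, so its ratio is not that of any 1 marker. The erythroid sum in WT tumor, with a mean of 9944, was mostly Tfrc (8164), while Hba-a1 led in stroma. Ctss (2031) and Mrc1 (1407) led the monocyte and macrophage sum in WT tumor (4734). In WT and IL-6 KO stroma Mrc1 had means of 4.83 and 0. These ratios too are not those of any 1 marker.

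**Figure D3:**
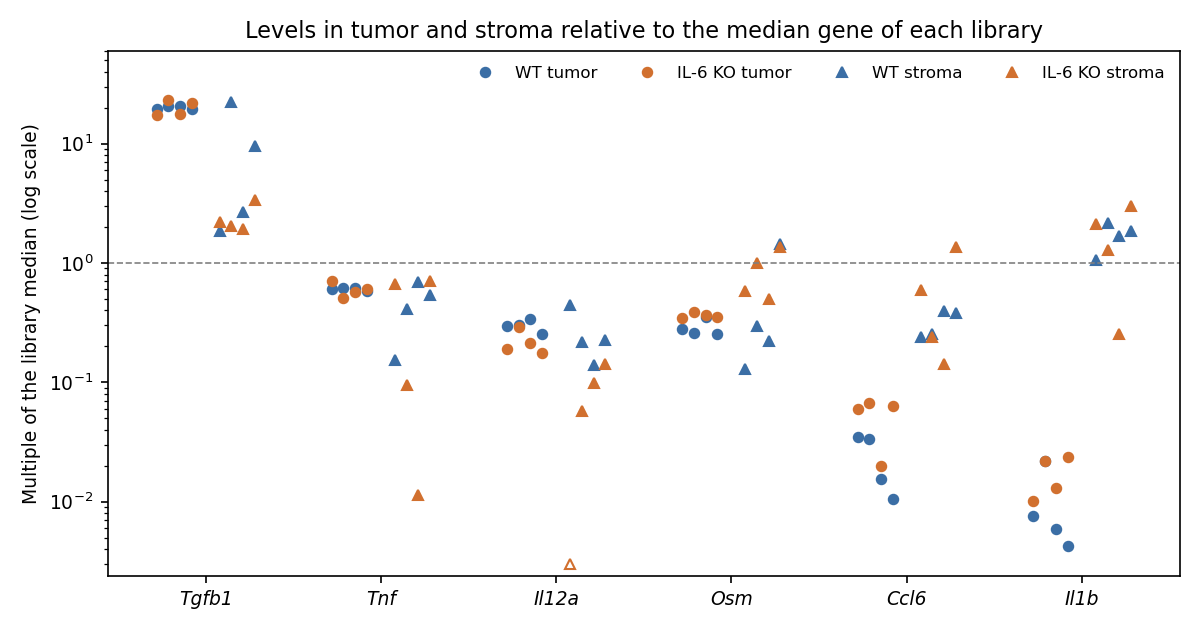
Each point is 1 library (circles tumor, triangles stroma, blue WT, orange IL-6 KO), and the log axis gives the normalized count as a multiple of the library's median over the genes in both tables, with the dashed line at 1; the open triangle is IL-6 KO stroma 1 for Il12a, which was at 0. Il1b and Ccl6 lay higher in all stroma than in all tumor libraries, and Tgfb1 lay near 20 times the median in tumor, a level that 1 stroma library reached.

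Neutrophil markers moved with the genotype in tumor. Of 18 neutrophil genes, 14 were higher in IL-6 KO tumor at an adjusted p of 0.05 (limma) and none was lower. Of all genes tested, 10.6% were called higher and 9.16% lower. The neutrophil genes with the largest means were Ngp, Ltf and S100a9. The summed normalized count of the 18 ran from 5059 to 5843 in WT tumor and from 8112 to 19690 in IL-6 KO tumor. Ly6g was the lowest of the 18, with means of 6.94 and 28.3. The library with the lowest sum among IL-6 KO tumor, IL-6 KO tumor 3 at 8112, was also the one with the lowest Ccl6 of its group. The 3 with sums of 17500 to 19690 had the 3 highest Ccl6 values of all tumor libraries. Il1b did not follow in the same way, with 9.54 in IL-6 KO tumor 1, where the sum was 18770. The monocyte and macrophage markers, 17 of 17 listed, had sums of 4426 to 4951 in WT tumor and 5288 to 6457 in IL-6 KO tumor. Of these markers 16 were tested and 4 were called higher (limma), beside 10.6% of all genes, and Cd163 was near 0. The part of these cells in the Ccl6, Osm and Il1b values was not tested.

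In stroma the summed neutrophil markers ran from 8654 to 16640 in WT mice and from 9043 to 35690 in IL-6 KO mice. Of the 18, 0 passed the threshold (limma), where 0.0082% of all genes did. WT stroma 1 and IL-6 KO stroma 3 had the lowest sums, 8654 and 9043, and also the 2 lowest values of both Il1b and Ccl6. IL-6 KO stroma 2 went the other way, with a sum of 34690 and the third lowest Il1b (112) and Ccl6 (20.7). IL-6 KO stroma 4 had the highest Il1b and Ccl6 of the 8 libraries, with a neutrophil sum of 32150 and the highest monocyte and macrophage sum, 2113, where the other 7 lay between 565 and 1231. Their part in these values was not tested.

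**Figure D4:**
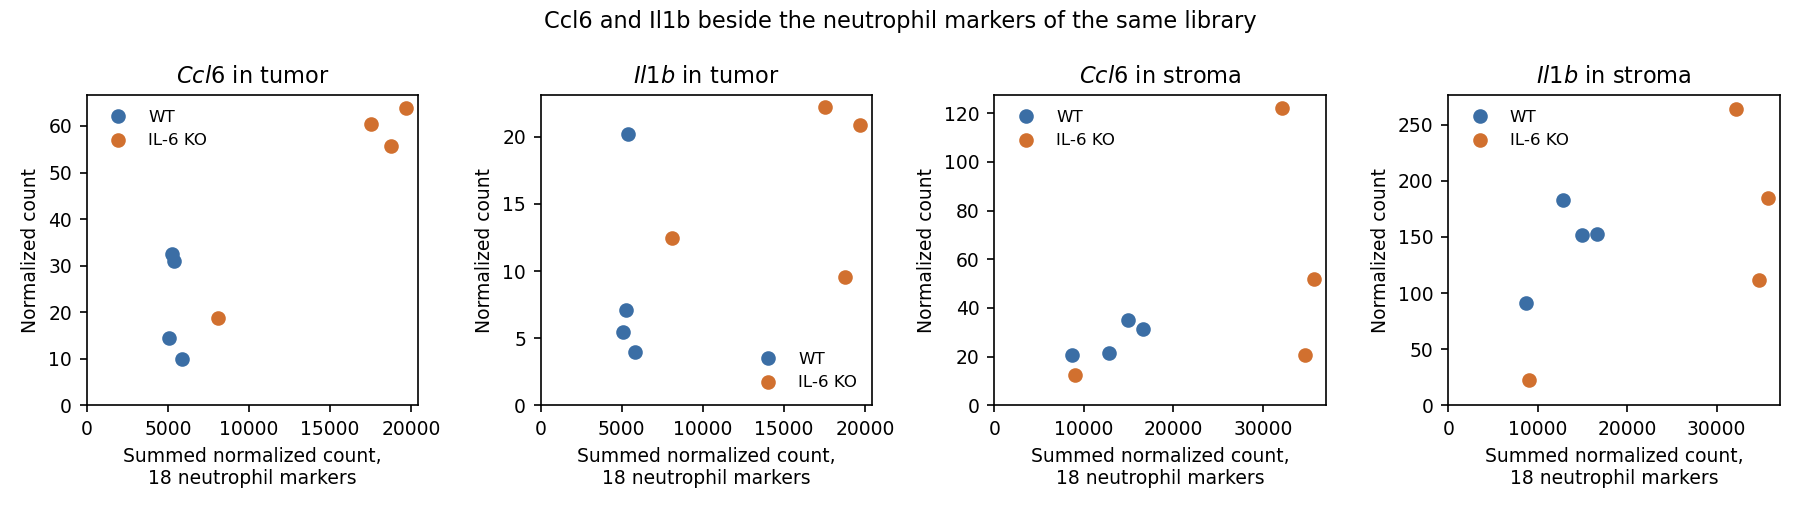
Normalized counts of Ccl6 and Il1b (vertical axis) are plotted against the summed normalized count of 18 neutrophil markers in the same library (horizontal axis), WT in blue and IL-6 KO in orange, for tumor (left 2 panels) and stroma (right 2 panels). The 3 tumor libraries with sums of 17500 or more had the highest Ccl6, and the 2 stroma libraries with sums of 8654 and 9043 had the lowest Il1b and Ccl6. IL-6 KO stroma 2 went the other way, with a sum of 34690 beside 112 for Il1b and 20.7 for Ccl6.

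Around these factors, 129 further genes were listed as other chemokines (32), other cytokines (46), receptors of the 10 factors (21), and genes that process or control them (30). In tumor 65 of them were tested and 7 differed between genotypes at an adjusted p of 0.05 (limma), all 7 higher in IL-6 KO mice, beside 10.6% of all genes called higher and 9.16% called lower. All IL-6 KO libraries were above all WT libraries for each of the 7, as they were for 13.6% of all genes. The 7 were chosen by these same values, so their separation adds nothing to the call. By list the 7 were 1 of 7 chemokines, 1 of 16 cytokines, 2 of 15 receptors and 3 of 27 processing and control genes. The median log2 fold changes of these lists were -0.39, 0.20, 0.01 and 0.13.

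The largest of these differences were in genes near 0 in WT tumor. Pycard, the adaptor of the inflammasome that activates caspase-1 to cleave the Il1b precursor, had normalized counts of 2.00, 2.27, 2.91 and 2.27 in WT tumor and 51.8, 65.9, 35.9 and 45.1 in IL-6 KO tumor. No WT library came near any IL-6 KO library, and the log2 fold change was 3.89 (SE 0.37, adjusted p = 0.000524, limma). Ccl9, a chemokine related to Ccl6, had normalized counts of 8.11, 8.25, 7.87 and 10.0 in WT tumor and 39.1, 78.6, 37.1 and 51.7 in IL-6 KO tumor, also without overlap. Its log2 fold change was 2.40 (SE 0.33, adjusted p = 0.00219, limma).

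Receptors that differed were those of Tnf and of the CC chemokines. Tnfrsf1a, the receptor of Tnf found on most cell types, had normalized counts of 13.3, 13.7, 17.8 and 32.4 in WT tumor and 116, 110, 39.0 and 82.6 in IL-6 KO tumor (log2 fold change 2.09, SE 0.41, adjusted p = 0.00867, limma). Ccr1, a receptor of Ccl3 and of Ccl6, had 7.76, 2.03, 5.66 and 6.94 in WT tumor and 33.3, 14.1, 25.8 and 18.8 in IL-6 KO tumor (log2 fold change 1.90, SE 0.48, adjusted p = 0.0239, limma). Pycard, Ccl9 and Tnfrsf1a had their lowest IL-6 KO value in IL-6 KO tumor 3, the library with the lowest neutrophil marker sum of its group. Ccr1 did not, with 25.8 there and its lowest value, 14.1, in IL-6 KO tumor 2. The part of neutrophils in these genes was not tested. The other Tnf receptor, Tnfrsf1b, had means of 1424 in WT and 1579 in IL-6 KO tumor and did not pass the threshold (limma adjusted p = 0.151).

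The other called genes differed less. Lrrc32, which holds latent Tgfb1 on the cell surface, had a mean normalized count of 913 in WT and 1338 in IL-6 KO tumor (log2 fold change 0.57, SE 0.15, adjusted p = 0.0270, limma). Ltbp2, a matrix protein that belongs by sequence to the latent Tgfb binding proteins but is not known to bind latent Tgfb1 itself, had means of 397 and 647 (log2 fold change 0.71, SE 0.20, adjusted p = 0.0363, limma). Mif, an abundant cytokine, had means of 7734 and 9009 (log2 fold change 0.22, SE 0.07, adjusted p = 0.0484, limma). The adjusted p of these 3 rose above 0.05 without the trend in the variances (0.0544, 0.0669 and 0.0968) and after removal of the trends with GC content and length, where Mif changed sign.

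Other genes of the Tgfb1 and Tnf pathways were present in tumor at levels that did not pass the test, and were chosen after their values were seen. Nrros, which like Lrrc32 tethers latent Tgfb1, had means of 4996 and 5249 (limma adjusted p = 0.602), and Eng, a coreceptor, 4848 and 5038 (limma adjusted p = 0.746). The signalling receptors Tgfbr2 and Tgfbr1 had means of 3786 and 3505 (limma adjusted p = 0.368) and of 581 and 483 (limma adjusted p = 0.178). Adam17, the protease that sheds Tnf from the membrane, had means of 2685 and 2870 (limma adjusted p = 0.394). Lta, the neighbour of Tnf in the genome and in the protein family, had means of 766 and 945 (limma adjusted p = 0.243).

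**Figure D5:**
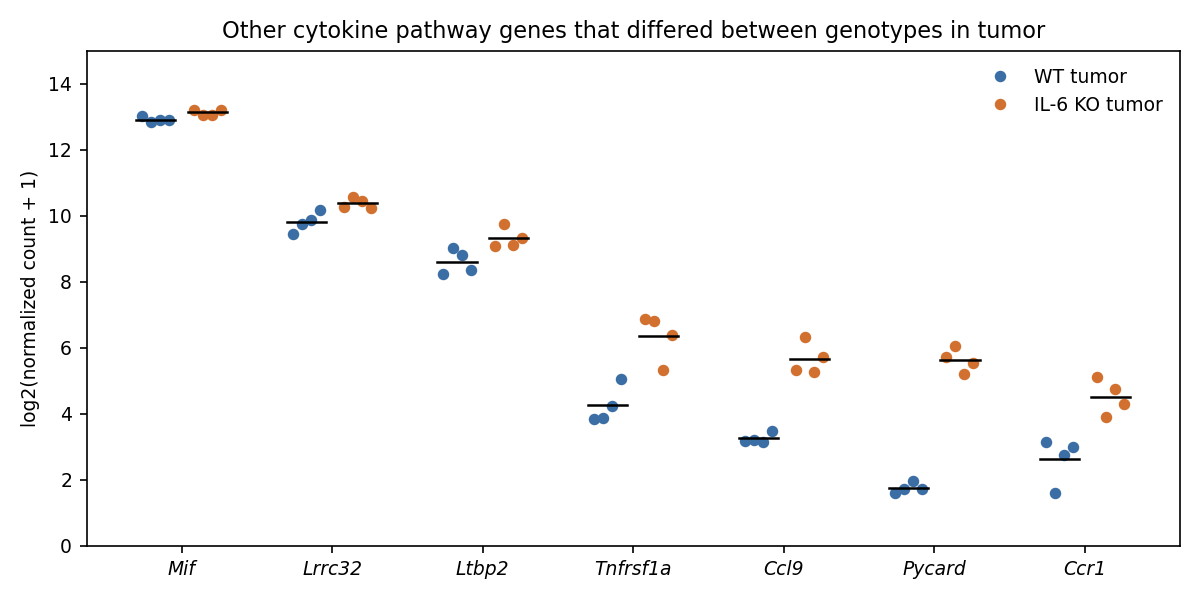
Each point is 1 tumor library, with log2(normalized count + 1) on the vertical axis, WT in blue, IL-6 KO in orange and group means as black lines, for the 7 pathway genes with an adjusted p under 0.05 (limma). Every IL-6 KO library was above every WT library for all 7, which were chosen by these same values. The widest gap was that of Pycard, which lay between 2.00 and 2.91 normalized counts in WT tumor.

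In stroma 55 of the 129 genes were tested and 0 passed an adjusted p of 0.05 (limma). With an unadjusted p of 0.05 there were 2 higher (Il1rap and Socs3), beside 3.95% of all genes, and 2 lower (Kitl and Il2rg), beside 5.2%. Socs3, the feedback inhibitor induced by IL-6 and Osm signalling, had normalized counts of 13.5, 85.5, 20.9 and 55.2 in WT stroma and 228, 114, 57.5 and 491 for IL-6 KO stroma (log2 fold change 2.24, SE 0.74, adjusted p = 0.432, limma). Il2rg, the receptor chain that Il15 needs to signal, had 41.8, 47.1, 73.1 and 44.2 in WT and 0, 20.4, 1.88 and 16.4 in IL-6 KO stroma (log2 fold change -3.16, SE 1.03, adjusted p = 0.432, limma). The log2 fold change of Il2rg was -2.32 without IL-6 KO stroma 1 and -2.24 with a pseudocount of 5.

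Kitl, the stem cell factor of the marrow niche, had 90.5, 37.0, 81.5 and 41.7 in WT and 29.8, 23.2, 31.4 and 5.74 in IL-6 KO stroma (limma adjusted p = 0.535). Il1rap, the accessory chain of the Il1b receptor, had 1.97, 22.2, 6.24 and 10.1 in WT and 21.1, 32.8, 25.9 and 63.8 in IL-6 KO stroma (limma adjusted p = 0.527). For Kitl, Il2rg and Elavl1 all IL-6 KO libraries were below all WT libraries, as they were for 3.25% of all genes, and for Socs3 and Il1rap 1 WT library, the second, reached into the IL-6 KO range. The 2 chemokines tested there, Cxcl2 and Ccl25, had means of 3.42 and 43.5 (limma adjusted p = 0.676) and of 17.7 and 20.7 (limma adjusted p = 0.916) in WT and IL-6 KO stroma. The remaining genes of smallest p in their lists were Ltb with means of 51.6 and 115 (limma adjusted p = 0.622), Il1rn with 53.4 and 29.2 (limma adjusted p = 0.735), Tnfrsf1b with 76.7 and 153 (limma adjusted p = 0.610), Zc3h12a with 171 and 85.9 (limma adjusted p = 0.608) and Elavl1 with 243 and 165 (limma adjusted p = 0.617).

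Genes that ran most like each factor over the 8 libraries of a table were found by Pearson correlation of log2(normalized count + 1). They are given as a description, since marker sums differed between libraries, and all genes of a library share its depth and cell makeup. In tumor they were Ppid for Tnf (r = 0.866), Sqstm1 for Il1b (r = 0.985), Nrarp for Tgfb1 (r = 0.970), Dnajc21 for Il12a (r = 0.988) and Rasal3 for Ccl6 (r = 0.919). In stroma they were Reep3 for Tnf (r = 0.976), Zbtb37 for Il1b (r = 0.984), Ist1 for Osm (r = 0.977), Eif3d for Tgfb1 (r = 0.966), Hdgf for Il15 (r = 0.942), Vrk3 for Il12a (r = 0.977) and Vegfa for Ccl6 (r = 0.977). Of the genes given, none led for the same factor in both compartments.

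The positions of the genes on GRCm38 (GENCODE vM21) put the 3 CC chemokines near each other. Ccl6 was at chr11:83587882-83593087 on the minus strand, Ccl3 at chr11:83647844-83649355 on the minus strand and Ccl4 at chr11:83662584-83664683 on the plus strand. Osm was at chr11:4236420-4241026 (plus), Tnf at chr17:35199381-35202007 (minus), Il1b at chr2:129364570-129371139 (minus), Tgfb1 at chr7:25687002-25705077 (plus), Il15 at chr8:82331632-82403222 (minus), Il12a at chr3:68690644-68698547 (plus) and Cxcl10 at chr5:92346638-92348889 (minus). All are protein-coding, and none had a near-identical copy among the other transcripts. Il1b overlaps the antisense gene Il1bos, Cxcl10 overlaps Art3 and Ccl6 overlaps E230016K23Rik, each on the opposite strand. The library kit keeps the strand, but the strand setting of the quantification is not given in the sources used here, so the values of these 3 could hold reads of their partners.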

How the data were processed

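Total RNA of sorted cells was depleted of ribosomal RNA and sequenced by the authors in single reads of 75 nucleotides. Per the labels and the paper, they quantified mm10 transcripts with salmon 1.3.0 and scaled the estimated counts with DESeq2 1.28.1. The deposited normalized counts are a scaled signal, not whole reads, in 1 table per compartment. The paper states only a rough depth common to all samples, and reads per library are not given, so no interval resting on counts was computed. The deposited DESeq2 comparisons (means, log2 fold changes, errors, statistics and p-values) were not used.

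The tables were fitted separately with limma 3.58.1 in R 4.3.3 on log2(normalized count + 1), over genes with a mean over 10, with variances that follow the mean, two-sided, Benjamini-Hochberg adjusted over all genes of the table, threshold 0.05. A fold change on that scale understates changes of low genes. Genotype was the only term. Nothing says that the libraries of a group came from separate mice, so p-values measure the spread between libraries. Positions, lengths and types came from GENCODE vM21, in which 13338 of 13344 stroma and 15069 of 15080 tumor identifiers were found. Copies were sought with BLAST 2.17.0 (at least 97% identity over 150 bases). Python 3.11.15, pandas 2.3.3, numpy 2.4.6, SciPy 1.17.1 and matplotlib 3.10.9 were used. The fit was tested on simulated data first.

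The factors and the lists were chosen with earlier results of these data known. The genes named were the 10 factors, up to 6 genes of each list with the smallest p under the threshold or otherwise the 3 with the smallest p, and for each factor the genes of highest correlation (mean over 50), of which the first is given, except that of Osm in tumor, which is not reported here. Of the marker lists, the genes near 0 and the 3 largest were named. The alternatives were pseudocounts of 0.5 and 5, other filters, quantile normalization, median centring, array weights, no variance trend, removal of GC content and length trends (loess, span 0.3), the replicate number as a block, leaving out each library, length of the longest transcript and percentile ranks. The levels in both compartments without each stroma library were added after the values were seen.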

Additional observations from a re-analysis of the deposited data

Results flagged for a closer look

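In 4 of 78 groups of 4 libraries tested, 1 library stood farther from the other 3 than Dixon's limit for 4 values allows, a rate that chance alone gives in about 1 of 20 groups. All 4 were in stroma. Osm in WT stroma 4 had a normalized count of 119.7, where the next library of the group had 25.5. Il15 in WT stroma 2 had 120.3, and the next library had 13.6. Cxcl2, a neutrophil chemokine, had 143.5 in IL-6 KO stroma 2, with 21.0 in the next. Il2rg had 73.1 in WT stroma 3, with 47.1 in the next.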

How the results depend on the processing

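With all libraries kept, the count of the 10 factors called in tumor was 0, and rose to 1 after quantile normalization (Osm, log2 fold change 0.43, limma adjusted p = 0.0470) and to 2 with array weights (Ccl6, 1.40, limma adjusted p = 0.0470, and Il12a, -0.60, limma adjusted p = 0.0132). Leaving out each library gave 0 to 1. The cause was not tested. The 7 other pathway genes called in tumor became 4 with a mean over 50, where 40 were tested, and 4 without the variance trend, and were 3 to 9 when a library was left out (3 without IL-6 KO tumor 1, 4 without IL-6 KO tumor 4). In stroma both counts were 0 under every alternative. Factors with every tumor library above every stroma library numbered 0, and 0 to 1 when a stroma library was left out. Within a compartment the replicate numbers did not pair WT with IL-6 KO libraries: none of these libraries, in stroma or in tumor, correlated best with its own number. Whether tumor and stroma libraries of the same number came from the same mouse is not given and was not examined. With the replicate number as a block, the counts were 0 and 7 in tumor and 0 and 0 in stroma.

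Tumor differences close to 0 changed sign. After quantile normalization Tgfb1 was -0.10, Tnf 0.001 and Nrros -0.0 on the log2 scale, and with array weights Tgfb1 was -0.003 and Tnf 0.06. After removal of GC content and length trends Tgfb1 was -0.14, Mif -0.15, Eng -0.14, Nrros -0.10 and Tnfrsf1b -0.016. Leaving out a library gave ranges through 0 for Tgfb1 (-0.06 to 0.085), Tnf (-0.092 to 0.068) and Eng (-0.077 to 0.174) in tumor, and for Il1b (-0.85 to 0.32), Ccl6 (-0.14 to 0.93), Il15 (-1.20 to 0.18) and Ccl25 (-0.60 to 1.04) in stroma. The adjusted p (limma) of Ccr1, Lrrc32, Ltbp2 and Mif reached 0.0784, 0.101, 0.0843 and 0.316 in the alternatives, while those of Pycard, Ccl9 and Tnfrsf1a stayed at or under 0.0332. The spread between stroma libraries limits what could be detected there.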
